A study of Homo sapiens with 66 samples.

Results

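HOXA13, HOTTIP, HOXA11, HOXA10, HOXA9, HOXB9, HOXB8, HOXB7 and HOXB6 were followed across RNA-seq libraries of a human colorectal cancer line in which single nuclear pore or mRNA export proteins were degraded. These 9 genes were taken by symbol from the 58051 genes of the count files, and all 9 were among the 17812 genes with enough counts to be tested. They are given by name, with no threshold on a measured value: 5 of the genes lie side by side at the posterior end of the HOXA cluster on chromosome 7, and 4 lie in the HOXB cluster on chromosome 17. They were chosen with earlier results of these data known, and the study names HOXA13 among the transcripts that fell strongly after TPR loss. Shares over all genes given beside their calls are therefore a description and no test of the set.

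All libraries came from DLD-1, an epithelial line from a colorectal adenocarcinoma, or from lines made from it with CRISPR/Cas9. In each tagged line both alleles of 1 gene carried an auxin-inducible degron (AID), a short tag through which the plant ligase TIR1 marks a protein for destruction once auxin is added. TIR1 was expressed from the RCC1 locus of the tagged lines, and clones were checked by PCR for homozygous tags. How many clones stand behind each line was not given in the sources used here. The study asked how the loss of individual proteins of the nuclear basket changes RNA abundance, and compared it with the loss of other transport factors.

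There were 66 libraries in 22 groups of 3. AID-NeonGreen-TPR cells (TPR is the large coiled-coil filament protein of the nuclear basket) were left untreated or given 1 mM auxin for 2 h. A further set of the same line, whose replicates carry the word old in the labels, held untreated cells and cells after 2 h and 8 h of auxin, and another set held cells given ActinomycinD for 2 h with or without auxin. NUP153-NeonGreen-AID cells (NUP153 is another protein of the basket) were sampled untreated and after 2 h and 8 h of auxin. NUP50-NeonGreen-AID cells (NUP50 is a mobile basket protein) were sampled untreated and after 3 h and 9 h. GAP1-NeonGreen-AID cells (RANGAP1, the GTPase-activating protein of Ran) were sampled untreated and after 2 h and 8 h. AID-FLAG-NXF1 cells (NXF1 is the principal mRNA export receptor) were sampled untreated and after 2 h of auxin, and AID-HA-GANP1 cells (GANP, gene MCM3AP, is the scaffold of the TREX-2 export complex) untreated and after 3 h. The parental DLD-1 cells, with neither tag nor TIR1, were sampled with and without 2 h of auxin. Each auxin group was compared with the untreated cells of its own line and label set.

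HOX genes encode homeodomain transcription factors and sit in clusters whose gene order mirrors the position along the body at which each gene is used. The paralogs of HOXA9 to HOXA13 act at the posterior end, and HOXA13 is a marker of hindgut and distal limb identity. HOXB6, HOXB7 and HOXB8 belong to the middle of the series and HOXB9 to its posterior side. HOTTIP is a long noncoding RNA transcribed from the distal tip of the HOXA cluster, away from HOXA13, and is known for binding WDR5, a subunit of the MLL histone methyltransferase complexes that keep the posterior HOXA genes active.

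The libraries held 18943661 to 55411411 counted reads. Of 10 colorectal epithelial markers, 9 had a median above 1 CPM (counts scaled to the library's total), with a summed level of 5709 to 15893 CPM over all libraries. The exception was CDX1, at 0 to 0.537 CPM, whereas its relative CDX2 stood at 69.8 to 358 CPM. The 5 fibroblast markers summed to 0 to 1.82 CPM, the 3 endothelial markers to 1.18 to 12.8 CPM and the 5 blood markers to 0.0363 to 1.81 CPM. RNA of the tagged gene was not lowered in any of the 12 comparisons of tagged lines (edgeR's quasi-likelihood test), which checks neither the tag nor the loss of the protein.

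A gene was called when its adjusted p was under 0.05 (edgeR's quasi-likelihood F test, Benjamini-Hochberg adjusted over the 17812 genes) and its fold was at least 1.3 or at most 0.7. A value that passed the p but not the fold is given as such. Differences between groups are on the log2 scale with their standard error (SE), and levels are CPM of the whole library. Each group had 3 libraries. The study's methods call them independent biological replicates, but the labels do not say what separated them, and p-values measure only the spread between these libraries.

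HOXA13 lies at chr7:27193503-27200091 on the minus strand of GRCh38, and HOTTIP at chr7:27198575-27207259 on the plus strand. Their RefSeq start sites point away from each other and are 330 bp apart, so that the 250 bases before each start share 171 bases. HOXA11 (chr7:27181157-27185232), HOXA10 (chr7:27170605-27180261) and HOXA9 (chr7:27162438-27175180) follow on the minus strand. The 250 bases upstream of HOXA13, HOXA11 and HOXA9 are shown because HOXA13 shares its upstream stretch with HOTTIP, HOXA11 was called in the largest number of comparisons (6 of 13), and HOXA9 was called in no comparison of AID-TPR cells. Capitals mark CCAAT (or its reverse complement ATTGG) and TATAAA (or TTTATA), the 2 promoter words searched on both strands, which do not overlap in these windows. Sequences are from RefSeq, build GRCh38.p14, 5′ to 3′ on the strand of the gene, and end at the base before its start.
HOXA13, chr7:27200092-27200341, minus strand: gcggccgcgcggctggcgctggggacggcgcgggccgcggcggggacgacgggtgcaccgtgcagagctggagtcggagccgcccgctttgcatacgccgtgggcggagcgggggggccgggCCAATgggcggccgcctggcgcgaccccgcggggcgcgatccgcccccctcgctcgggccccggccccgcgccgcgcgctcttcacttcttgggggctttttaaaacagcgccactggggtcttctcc
HOXA11, chr7:27185233-27185482, minus strand: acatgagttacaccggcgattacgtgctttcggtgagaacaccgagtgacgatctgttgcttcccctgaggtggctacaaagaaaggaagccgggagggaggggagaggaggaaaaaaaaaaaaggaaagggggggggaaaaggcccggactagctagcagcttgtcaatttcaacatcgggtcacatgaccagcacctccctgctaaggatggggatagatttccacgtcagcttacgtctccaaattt
HOXA9, chr7:27165538-27165787, minus strand: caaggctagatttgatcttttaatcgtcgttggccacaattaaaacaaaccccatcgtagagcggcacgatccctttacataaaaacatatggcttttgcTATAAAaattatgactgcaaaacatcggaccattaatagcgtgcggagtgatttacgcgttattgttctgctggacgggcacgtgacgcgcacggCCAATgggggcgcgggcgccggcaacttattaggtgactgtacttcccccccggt

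The HOXA13 window was 78.0% G and C with 40 CG dinucleotides, against medians of 58.0% and 11 over the 35116 promoters of the same table. It held 1 CCAAT, at 128 bases before the start, which also lies in the HOTTIP window, and no TATAAA. The HOXA11 window, at 51.6% G and C with 11 CG dinucleotides, held neither word. The HOXA9 window, at 48.8% G and C with 20 CG dinucleotides, held a TATAAA at 150 and a CCAAT at 55 bases before the start. Of all promoters, 32.0% held CCAAT and 10.7% held TATAAA within this length. In the annotation (GENCODE release 44) the whole HOXA11 window is exonic in the antisense gene HOXA11-AS, the HOXA13 window is intronic in HOTTIP and the HOXA9 window is intronic in a longer HOXA9 transcript.

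In untreated cells all 9 genes were well measured, with at least 265 counts in every one of the 66 libraries. Compared per kb of exon, HOXB9 had the highest mean level in each of the 8 untreated groups, at 28.6 to 53.1 CPM per kb. HOTTIP had the lowest in each, at 3.48 to 6.87 CPM per kb. HOXB7 was second in every untreated group except NXF1 and old AID-TPR, and in NUP153 cells its libraries overlapped those of HOXB9. HOXB8 was second lowest except in old AID-TPR and NUP50 cells, where HOXA10 was. HOXA10 stood lower in the kind of file to which both of these groups belong, as given below.

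**Figure D1:**
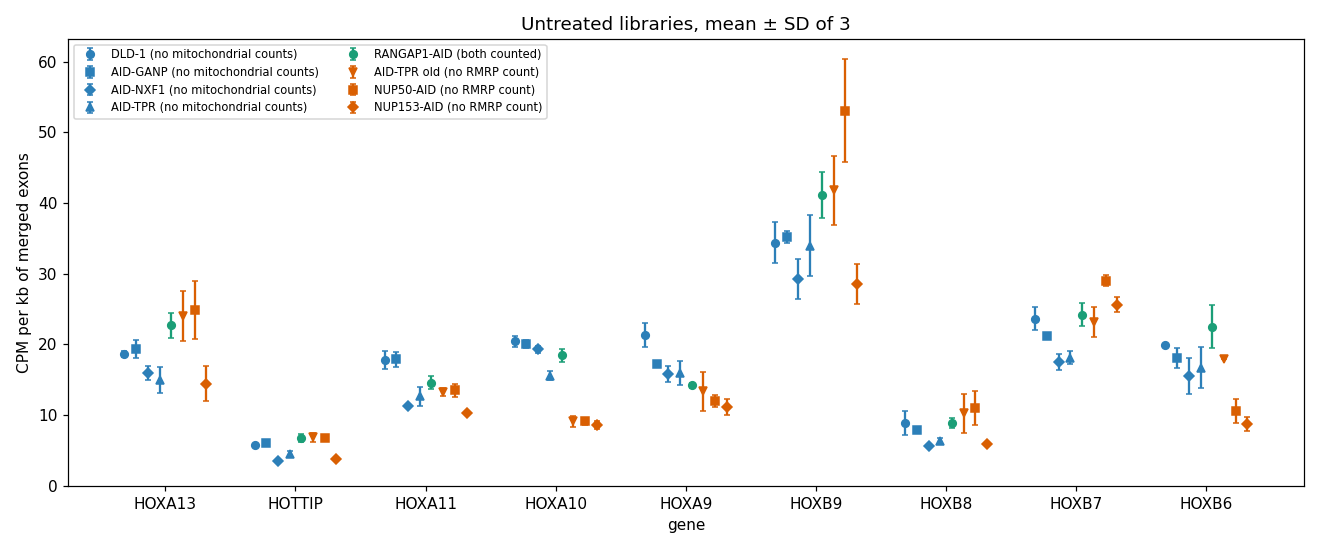
Levels of the 9 genes in untreated cells, in CPM per kb of exon, with points for the mean and bars for the SD of the 3 libraries of each of the 8 untreated groups, coloured by the kind of file. HOXB9 stands highest at group means of 28.6 to 53.1 CPM per kb and HOTTIP lowest at 3.48 to 6.87. HOXA10 splits into a lower band (8.61 to 9.15), all of one kind of file, and an upper band (15.6 to 20.4) of the other kinds.

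The files fall into 3 kinds by which genes can receive reads, and this bears on genes that overlap another gene. In 24 libraries (DLD-1, GANP, NXF1 and the plain AID-TPR set) no read was counted to mitochondrial genes. In 33 libraries (old AID-TPR, ActinomycinD, NUP50 and NUP153) none was counted to RMRP, a short noncoding RNA gene. The 9 RANGAP1 libraries had counts of both. The antisense and nested genes of the HOXA cluster had more counts in the first kind than in the second. HOXA10-AS shares 608 bp of exon with HOXA10 (16.4% of its length) and had 964 to 1782 counts in untreated libraries of the first kind but 21 to 55 in the second. HOXA11-AS shares 726 bp (27.2% of HOXA11) and had 414 to 864 against 136 to 225. A readthrough gene of HOXA9 and HOXA10 (ENSG00000257184) had 654 to 1347 against 0 to 1.

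The mean of HOXA10 in untreated cells was 57.8 to 75.7 CPM in the first kind and 31.9 to 33.9 CPM in the second, with no overlap between libraries. Levels of HOXA10, HOXA11, HOXA9 and HOXB6 are therefore compared only within a kind, and every comparison of auxin with untreated cells stays within one. HOXB6 shares 433 bp with HOXB3 on its own strand and 425 bp with HOXB-AS3 on the other. HOXA13 and HOTTIP share only 86 bp, which is 1.70% of the exon length of HOXA13. Genes nested in HOTTIP on its own strand share 57, 376, 337 and 165 bp with it. They had 12 to 105 counts in untreated libraries of the first kind and 0 in the second, so HOTTIP levels given over all untreated groups cross kinds. The share of reads that belongs to each partner was not tested.

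Untreated groups differed in level. Within the first kind of file, the mean of HOXA13 was 98.1 ± 6.49 CPM (SD, n = 3) in GANP cells, 94.6 ± 2.08 in DLD-1, 81.0 ± 5.10 in NXF1 and 75.9 ± 9.61 in the plain AID-TPR set. Neighbours in this order had overlapping libraries except DLD-1 and NXF1. Within the second kind, NUP50 cells stood at 126 ± 20.6 CPM and old AID-TPR cells at 122 ± 17.9, which overlapped, and both were above NUP153 cells at 73.3 ± 12.5. HOXB6 varied most in that kind, from 22.9 ± 2.51 CPM in NUP153 cells to 46.8 ± 0.155 in old AID-TPR cells. HOXA11 ran from 30.1 ± 0.901 in NXF1 cells to 47.8 ± 2.81 in GANP cells within the first kind.

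After 2 h of auxin in the plain AID-TPR set, HOXA11 fell and none of the other 8 genes was called, while 0.404% of all genes were called lower. HOXA11, a partner of HOXA13 in limb and urogenital patterning, stood at 33.3, 30.5 and 37.4 CPM in untreated cells and at 23.0, 17.3 and 23.3 CPM after auxin. The 2 groups did not overlap, and the log2 difference was -0.65 ± 0.12 (edgeR's quasi-likelihood test, Benjamini-Hochberg, adjusted p = 0.0493). HOXA13 stood at 84.7, 65.6 and 77.2 CPM untreated and at 50.9, 45.1 and 57.9 CPM after auxin. These groups did not overlap either, but the difference of -0.54 ± 0.10 missed the threshold (edgeR, adjusted p = 0.0555). By DESeq2 HOXA13 was called, at -0.53 (adjusted p = 4.3e-04), while 167 of all genes were called lower in place of 72.

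The remaining genes of this set lay below 0 as well, with a median of -0.34 over the 9 genes against 0.01 over all genes, of which 47.4% lay below 0. HOXA10 differed by -0.33 ± 0.07 (edgeR, adjusted p = 0.0722), HOXB6 by -0.49 ± 0.11 (adjusted p = 0.0862) and HOXB9 by -0.34 ± 0.10 (adjusted p = 0.258). HOTTIP differed by -0.28 ± 0.09 (adjusted p = 0.319). HOXA9, a regulator of blood progenitors, stood apart at 51.7, 42.7 and 51.3 CPM untreated and 45.4, 44.3 and 50.6 CPM after auxin. Its groups overlapped, and its difference was -0.03 ± 0.09 (adjusted p = 0.950).

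Samples with the same replicate number deviated together in this comparison, and with the replicate number as a block HOXA13 was also called, at -0.54 (edgeR, adjusted p = 4.03e-11), so that 2 of the 9 genes were called. Over all genes that fit called 294 lower in place of 72. Each gene has 2 residual degrees of freedom in it, and the shared prior has 51.6 in place of 6.06 degrees of freedom; the part of the prior in the smaller p-values was not tested. The HOXA11 call was lost without any 1 of the 6 libraries, with values of -0.72 to -0.53 and adjusted p from 0.0603 to 0.201. Without untreated replicate 2, HOXA13 was called at -0.62 (adjusted p = 0.0474).

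**Figure D2:**
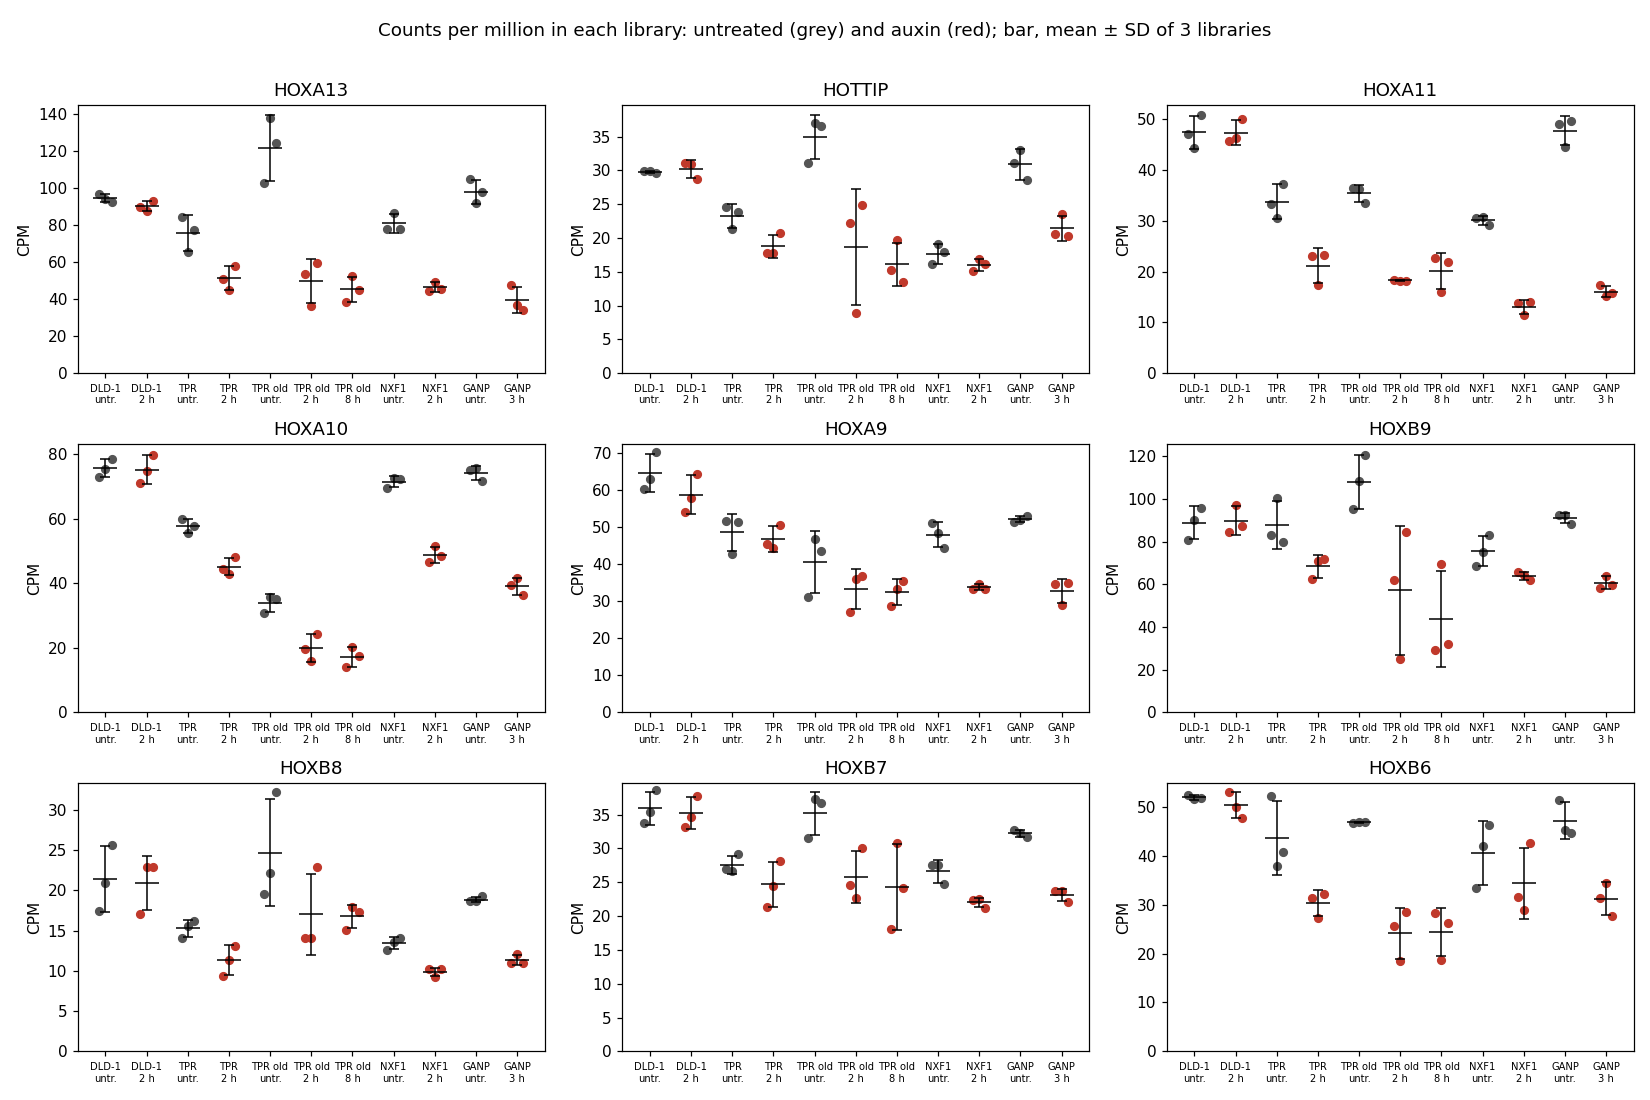
CPM of the 9 genes in each library of DLD-1, both AID-TPR sets, NXF1 and GANP, 1 panel for each gene, with untreated libraries in grey, auxin libraries in red and bars for the mean ± SD of 3 libraries. HOXA13 and HOXA11 libraries after auxin sit below their untreated libraries in both AID-TPR sets, NXF1 and GANP, and overlap them in DLD-1 (HOXA13 at 92.7 to 96.8 CPM untreated and 87.7 to 93.1 CPM after auxin).

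The old AID-TPR set gave larger differences for the same line. The plain and the old set are of different kinds of file, and the part of the counting in this was not tested. After 2 h of auxin 3 of the 9 genes fell (HOXA13, HOXA11 and HOXB6), while 0.309% of all genes did, and after 8 h 5 fell (HOXA13, HOTTIP, HOXA11, HOXA10 and HOXB6), while 2.36% of all genes did. These 2 comparisons share their untreated libraries. The median over the 9 genes was -0.82 at 2 h and -0.81 at 8 h, beside 0.00 over all genes at both times.

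HOXA13 stood at 103, 138 and 125 CPM in the untreated old set, at 53.5, 36.5 and 59.6 CPM after 2 h and at 38.4, 52.4 and 45.0 CPM after 8 h. Every untreated library was above every auxin library, and the 2 times overlapped each other. The log2 difference was -1.19 ± 0.17 at 2 h (edgeR's quasi-likelihood test, Benjamini-Hochberg, adjusted p = 0.0199) and -1.30 ± 0.16 at 8 h (adjusted p = 0.00935).

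HOTTIP stood at 31.1, 37.0 and 36.6 CPM untreated, at 22.2, 8.92 and 24.8 CPM after 2 h and at 15.3, 19.6 and 13.4 CPM after 8 h. Both times lay below the untreated libraries, but the 2 h libraries were widely spread, with replicate old2 far under the others. The difference was -0.82 ± 0.29 at 2 h (edgeR, adjusted p = 0.322) and -0.98 ± 0.17 at 8 h (adjusted p = 0.0239).

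HOXA11 stood at 36.4, 36.3 and 33.6 CPM untreated, at 18.4, 18.2 and 18.2 CPM after 2 h and at 22.6, 16.1 and 21.8 CPM after 8 h. It was the most even of the genes at 2 h, with a difference of -0.85 ± 0.13 (edgeR, adjusted p = 0.0265), and at 8 h it differed by -0.68 ± 0.16 (adjusted p = 0.0481). HOXA10 stood at 30.7, 35.8 and 35.2 CPM untreated, 19.5, 15.9 and 24.4 CPM after 2 h and 13.9, 20.2 and 17.5 CPM after 8 h. Its groups did not overlap at either time, with -0.67 ± 0.16 at 2 h (adjusted p = 0.141) and -0.84 ± 0.17 at 8 h (adjusted p = 0.0336).

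Of the HOXB genes, HOXB6 stood at 46.6, 46.8 and 46.9 CPM untreated, 25.5, 18.4 and 28.5 CPM after 2 h and 28.3, 18.7 and 26.2 CPM after 8 h. The untreated libraries were nearly equal and well above the others, with -0.86 ± 0.15 at 2 h (edgeR, adjusted p = 0.0495) and -0.81 ± 0.16 at 8 h (adjusted p = 0.0334). HOXB9 was the most uneven, at 95.1, 108 and 121 CPM untreated, 62.0, 24.8 and 84.6 CPM after 2 h and 29.1, 69.5 and 32.2 CPM after 8 h. Its differences of -0.84 ± 0.32 and -1.18 ± 0.29 missed the threshold (adjusted p = 0.355 and 0.0584). HOXB8, HOXB7 and HOXA9 differed by -0.44 to -0.17 across both times, and none of these 3 genes was called.

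Single libraries decided many of the calls in the old set. At 2 h between 0 and 3 of the genes were called when 1 library was left out: HOXA13 alone without 2 h replicate old1 or old3 or untreated replicate old1, and none without untreated replicate old2 (HOXA13 at -1.11, edgeR, adjusted p = 0.209) or old3 (-1.16, adjusted p = 0.0748). At 8 h between 0 and 7 were called: HOXA13 alone without 8 h replicate old1 or untreated replicate old1 or old3, none without untreated replicate old2 (HOXA13 -1.20, adjusted p = 0.0779) or without 8 h replicate old3 (HOXA13 -1.30, adjusted p = 0.0575), and 7 without 8 h replicate old2, where HOXB9 stood at -1.69 (adjusted p = 7.18e-05) and HOXB7 at -0.61 (adjusted p = 0.0201). Over all genes the number called moved too, from 0 to 121 at 2 h (79 with every library) and from 5 to 3733 at 8 h (639 with every library). The 2 h differences of the old and the plain set were compared directly, and none of the 9 genes differed (edgeR, 0.0% of all genes; DESeq2 also 0), with 0.66 ± 0.22 for HOXA13. With unadjusted p-values 7 of the 9 genes were under 0.05 in each 2 h comparison alone, beside 9.43% of all genes in the plain and 12.1% in the old set.

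**Figure D3:**
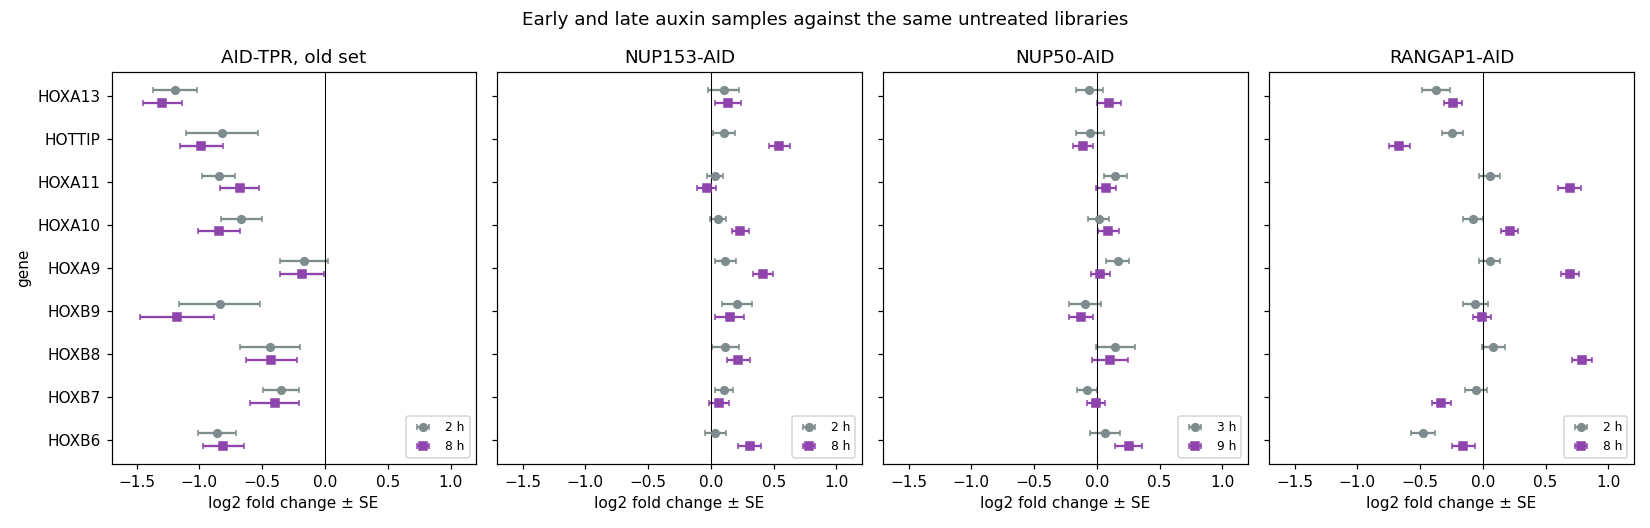
Log2 difference of auxin from untreated cells for the 9 genes at the early (2 h or 3 h) and the late (8 h or 9 h) time of the 4 lines sampled at both, with bars for the standard error, circles for the early and squares for the late time. In old AID-TPR cells the genes lie below 0 at both times (medians -0.82 and -0.81), and in RANGAP1 cells HOXA11, HOXA9 and HOXB8 lie at 0.05 to 0.08 at 2 h and at 0.69 to 0.79 at 8 h. Early and late values of a line share their untreated libraries.

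Loss of NXF1 for 2 h lowered HOXA13 and HOXA11, 2 of the 9 genes, while 5.93% of all genes were called lower. HOXA11 stood at 30.5, 30.8 and 29.1 CPM untreated and at 13.8, 11.5 and 14.0 CPM after auxin. The difference of -1.14 ± 0.08 was many times its error (edgeR's quasi-likelihood test, Benjamini-Hochberg, adjusted p = 5.9e-06). HOXA13 stood at 78.0, 86.9 and 78.1 CPM untreated and at 44.7, 49.4 and 45.6 CPM after auxin, a difference of -0.74 ± 0.06 (adjusted p = 1.6e-05). In both genes every untreated library lay above every auxin library. HOXA10 (-0.49 ± 0.05), HOXA9 (-0.45 ± 0.07) and HOXB8 (-0.38 ± 0.08) passed the p but not the fold, and without NXF1 auxin replicate 2 HOXA10 stood at -0.54 and was called. HOTTIP differed by -0.08 ± 0.08 (adjusted p = 0.515), HOXB9 by -0.18 ± 0.07 (adjusted p = 0.0701) and HOXB6 by -0.18 ± 0.13 (adjusted p = 0.351).

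Loss of GANP for 3 h lowered 5 of the 9 genes (HOXA13, HOXA11, HOXA10, HOXA9 and HOXB8), while 11.5% of all genes were called lower. HOXA11 stood at 49.1, 44.6 and 49.7 CPM untreated and at 17.3, 15.2 and 15.7 CPM after auxin. This was the lowest log2 difference of the 9 genes over the 13 comparisons, at -1.46 ± 0.08 (edgeR's quasi-likelihood test, Benjamini-Hochberg, adjusted p = 2.2e-06). HOXA13 went from 105, 91.9 and 97.7 CPM to 47.8, 37.0 and 33.9 CPM, a difference of -1.20 ± 0.11 (adjusted p = 3.1e-05). HOXA10 went from 75.1, 75.7 and 71.7 CPM to 39.4, 41.5 and 36.4 CPM, a difference of -0.82 ± 0.07 (adjusted p = 1.5e-05). The libraries of these 3 genes did not overlap between untreated and auxin cells.

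HOXA9 in GANP cells stood at 51.5, 51.8 and 53.0 CPM untreated and at 34.5, 28.9 and 34.8 CPM after auxin, a difference of -0.56 ± 0.09 (edgeR, adjusted p = 9.5e-04). Without GANP auxin replicate 2 it was -0.47 and no longer passed the fold (adjusted p = 0.00233). HOXB8 differed by -0.62 ± 0.08 (adjusted p = 2.8e-04). The other 4 genes passed the p but not the fold, from -0.49 ± 0.09 for HOXB6 to -0.37 ± 0.07 for HOXB7. HOXB6 passed both without GANP auxin replicate 2 (-0.56) or untreated replicate 2 (-0.52). Scaling by library size alone, in place of trimmed means, moved HOTTIP, HOXB9 and HOXB6 past the fold, and 8 of the 9 genes were then called, while 2731 of all genes were called lower in place of 2052.

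**Figure D4:**
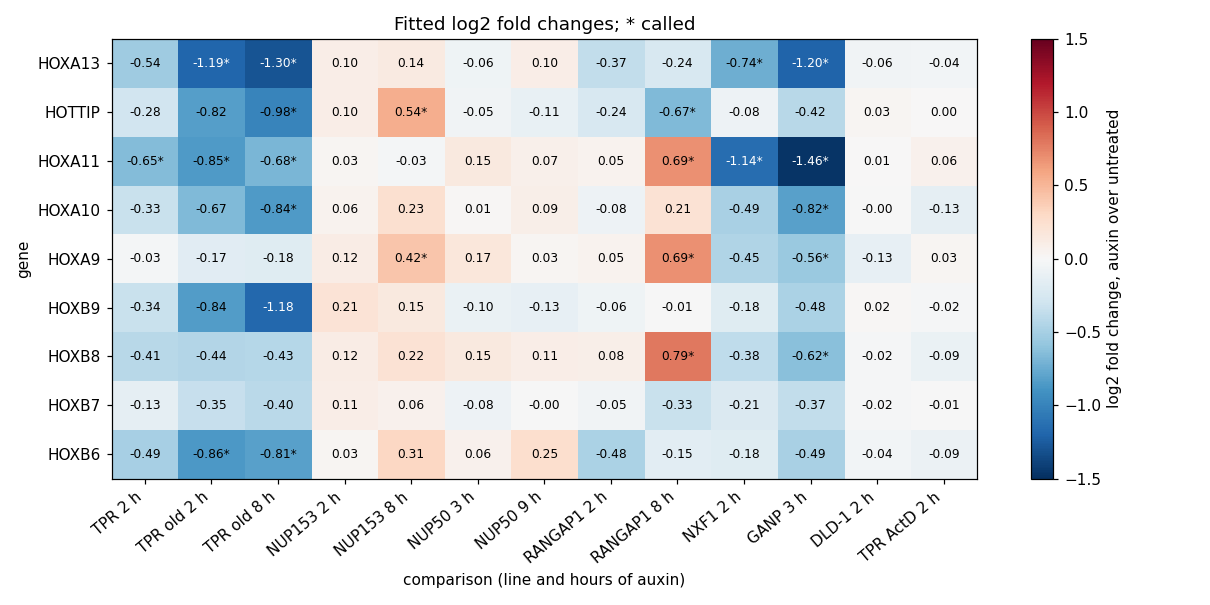
Log2 difference of auxin from untreated cells for the 9 genes (rows) in the 13 comparisons (columns), with the value printed in each cell and a star on called genes. HOXA11 and HOXA13 hold the lowest values of the plain AID-TPR, NXF1 and GANP columns, down to -1.46, HOXA13 holds the lowest of both old AID-TPR columns, and the DLD-1 and ActinomycinD columns lie between -0.13 and 0.06.

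Loss of NUP153 or NUP50 lowered none of the 9 genes. After 2 h without NUP153 none was called (0.0225% of all genes, edgeR; 0 by DESeq2 and 0 at an unadjusted p under 0.05), with differences of 0.03 to 0.21. After 8 h HOTTIP and HOXA9 rose, 2 of the 9 genes, while 0.915% of all genes were called higher. HOTTIP stood at 20.7, 18.7 and 19.3 CPM untreated and at 29.3, 27.5 and 30.7 CPM after 8 h. The groups did not overlap, and the difference was 0.54 ± 0.08 (edgeR's quasi-likelihood test, Benjamini-Hochberg, adjusted p = 0.0138). HOXA9 went from 37.2, 33.8 and 30.6 CPM to 44.5, 48.6 and 45.3 CPM, a difference of 0.42 ± 0.08 (adjusted p = 0.0310). HOXA13, whose start region is shared with HOTTIP, differed by 0.14 ± 0.10 at that time (adjusted p = 0.630). Leaving out 1 library gave 0 to 2 calls: HOTTIP lost its call without 8 h replicate 2 (0.58, adjusted p = 0.0567) or 3 (0.51, adjusted p = 0.0730) and without untreated replicate 1 (0.58, adjusted p = 0.0591) or 2 (0.50, adjusted p = 0.0525), and HOXA9 without these and without untreated replicate 3 (0.36, adjusted p = 0.0806).

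In NUP50 cells none of the 9 genes was called at 3 h (0.18% of all genes, edgeR; 0 by DESeq2 and 0 at an unadjusted p under 0.05) or at 9 h (0.365%, edgeR; 0 by DESeq2 and 1 at an unadjusted p under 0.05, beside 16.5% of all genes). Differences were -0.10 to 0.17 at 3 h and -0.13 to 0.25 at 9 h. HOXA13 stood at 124, 148 and 107 CPM untreated, 121, 128 and 109 CPM after 3 h and 133 to 140 CPM after 9 h, when the difference was 0.10 ± 0.10 (edgeR, adjusted p = 0.671). The untreated libraries overlapped those of both times, and the 9 h libraries lay above the 3 h libraries.

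RANGAP1 cells moved in both directions at 8 h. At 2 h none of the 9 genes was called (0.545% of all genes, edgeR; 0 by DESeq2 and 3 at an unadjusted p under 0.05, beside 7.28% of all genes), with HOXB6 at -0.48 ± 0.10 (adjusted p = 0.0833) and HOXA13 at -0.37 ± 0.11 (adjusted p = 0.294). At 8 h HOTTIP fell, 1 of the 9 genes while 6.62% of all genes were called lower, and HOXA11, HOXA9 and HOXB8 rose, 3 of the 9 while 8.23% were called higher. HOTTIP went from 33.9, 32.0 and 37.7 CPM to 21.7, 19.4 and 22.3 CPM, a difference of -0.67 ± 0.08 (edgeR's quasi-likelihood test, Benjamini-Hochberg, adjusted p = 3.3e-04). HOXA11 went from 41.8, 37.5 and 37.5 CPM to 67.2, 61.8 and 54.3 CPM, a difference of 0.69 ± 0.09 (adjusted p = 4.9e-04). Neither gene had overlapping libraries.

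HOXA9 differed by 0.69 ± 0.07 in RANGAP1 cells at 8 h (edgeR, adjusted p = 1.2e-04) and HOXB8 by 0.79 ± 0.08 (adjusted p = 1.0e-04). HOXA13 (-0.24 ± 0.07), HOXA10 (0.21 ± 0.07) and HOXB7 (-0.33 ± 0.07) passed the p but not the fold, and HOXB9 and HOXB6 passed neither. The same 4 genes were called when any 1 library was left out. The 2 times share their untreated libraries.

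Auxin alone moved none of the 9 genes past the threshold in parental DLD-1 cells (0.0561% of all genes called, edgeR; 0 by DESeq2 and 0 at an unadjusted p under 0.05). HOXA13 stood at 96.8, 94.2 and 92.7 CPM without auxin and at 90.1, 87.7 and 93.1 CPM with it, and HOXA11 at 47.1, 44.3 and 50.9 against 45.7, 46.4 and 50.1 CPM. The libraries overlapped in both genes, and the 9 differences lay between -0.13 and 0.03.

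In AID-TPR cells given ActinomycinD, an inhibitor of transcription, auxin moved none of the 9 genes either (0.0% of all genes called, edgeR; 0 by DESeq2 and 0 at an unadjusted p under 0.05). HOXA13 stood at 64.8, 42.4 and 61.9 CPM with ActinomycinD alone and at 61.5, 43.3 and 59.6 CPM with auxin as well. The libraries of equal number lay close to each other, and the 9 differences lay between -0.13 and 0.06. The libraries with ActinomycinD alone can be set beside the untreated old AID-TPR libraries, which are of the same kind of file. Their mean CPM was 0.44 of the old untreated mean for HOXB6, 0.46 for HOXA13, 0.47 for HOXA11, 0.71 for HOXA10 and 0.83 for HOXB9. The choice of untreated set matters. Over the plain untreated mean, from another kind of file, the ratio was 0.74 for HOXA13 and 1.02 for HOXB9. CPM are scaled to each library's total, so the ratios are relative to the RNA left in the ActinomycinD libraries. No ActinomycinD library has an untreated library of its own label set, so that these ratios carry no test.

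Whether the response to auxin differed between AID-TPR cells and another group was tested directly, as the difference of the 2 differences. Against DLD-1, HOXA11 differed at -0.66 ± 0.14 (edgeR's quasi-likelihood test, Benjamini-Hochberg, adjusted p = 0.0462), 1 of the 9 genes against 0.825% of all genes, and HOXA13 and HOXA10 missed the threshold (-0.49 ± 0.12 and -0.34 ± 0.08, adjusted p = 0.0928 for both). The HOXA11 difference lost its call without any of 10 of the 12 libraries in turn. Against GANP, 4 of the 9 genes had a smaller decrease in AID-TPR cells, against 5.77% of all genes: HOXA11 by 0.82 ± 0.15 (adjusted p = 0.00516), HOXA13 by 0.67 ± 0.17 (adjusted p = 0.0281), HOXA9 by 0.54 ± 0.13 (adjusted p = 0.0236) and HOXA10 by 0.49 ± 0.09 (adjusted p = 0.00483). The auxin time was 2 h in one and 3 h in the other. Leaving out 1 library kept HOXA11 and HOXA10 each time, while HOXA13 lost its call without 7 of the 12 libraries (0.55 to 0.70) and HOXA9 without 3 (0.47 to 0.48).

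None of the 9 genes differed between AID-TPR cells and NUP153 (0.646% of all genes, edgeR; 4 by DESeq2), NUP50 (0.124%; 1 by DESeq2), RANGAP1 (0.298%; 1 by DESeq2), NXF1 (2.28%; 1 by DESeq2) or ActinomycinD (0.00561%; 0 by DESeq2) in the early comparisons. By DESeq2, 262, 212, 146, 582 and 48 of all genes differed in that order. HOXA11 was nearest, at -0.68 ± 0.15 against NUP153 (edgeR, adjusted p = 0.0568; without plain auxin replicate 3, -0.76, adjusted p = 0.0466) and -0.79 ± 0.16 against NUP50 (adjusted p = 0.0655). With the replicate number as a block, 7 of the 9 genes differed from NUP153 (HOXA13 -0.65, adjusted p = 1.41e-06; HOXA11 -0.69, adjusted p = 7.31e-06), 3 from RANGAP1, 4 from NXF1, 4 from ActinomycinD and 5 from GANP. Far more of all 17812 genes differed in those fits as well, namely 816, 946, 2370, 800 and 3937 in that order. All these comparisons share the plain AID-TPR libraries. The NUP153, NUP50, RANGAP1 and ActinomycinD libraries are of other kinds of file than the plain AID-TPR set. The part of the counting in the differences from them was not tested.

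At the late times the old AID-TPR set was set against the other lines, a comparison added after the values had been seen. HOXA13 differed from NUP153 cells at 8 h by -1.42 ± 0.20 (edgeR, adjusted p = 0.00159), from NUP50 cells at 9 h by -1.39 ± 0.20 (adjusted p = 0.00213) and from RANGAP1 cells at 8 h by -1.06 ± 0.17 (adjusted p = 0.00190). In all, 6 of the 9 genes differed from NUP153 (10.2% of all genes), 5 from NUP50 (9.75%) and 7 from RANGAP1 (11.4%). HOXA11 was among them each time, whereas HOXB7 was in none. These 3 comparisons share the old AID-TPR libraries, and NUP50 was sampled 1 h later. Without any 1 library HOXA13 and HOXA10 differed in all 3, whereas HOXB9, HOXB6 and HOXA11 lost or gained their call with single libraries. Without 8 h replicate old2, HOXA9 (-0.60, edgeR, adjusted p = 0.0468) and HOXB7 (-0.65, adjusted p = 0.0137) also differed from NUP153. Without that library HOXB7 differed from NUP50 (-0.60, adjusted p = 0.0199) and HOTTIP from RANGAP1 (-0.48, adjusted p = 0.0307). With 1 library left out, 4 to 8, 4 to 7 and 5 to 8 of the genes differed from NUP153, NUP50 and RANGAP1 in that order.

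HOTTIP and HOXA13 moved unequally in several lines, as seen in the counts of HOTTIP per 100 counts of HOXA13. Untreated groups had 21.8 ± 1.17 (NXF1) to 31.6 ± 3.78 (GANP). After auxin the share was 34.4 ± 0.807 in NXF1 cells and 55.5 ± 10.9 in GANP cells, with no overlap of libraries in either line. In the plain AID-TPR set it went from 30.8 to 36.7 and also did not overlap. In old AID-TPR cells it went from 28.8 to 35.9 at 2 h, where the libraries overlapped. At 8 h it was 35.7 and again overlapped. NUP153 cells went from 27.2 untreated to 35.5 at 8 h with no overlap, and their 2 h value of 27.4 overlapped. RANGAP1 cells stood at 29.9 untreated, at 33.2 at 2 h, where libraries overlapped, and at 22.3 at 8 h, below every untreated library. DLD-1 cells went from 31.5 to 33.5 and NUP50 cells from 27.8 to 27.3 at 3 h and 23.6 at 9 h, all with overlap. The 2 genes have nearly equal exon lengths (5071 and 5086 bp).

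**Figure D5:**
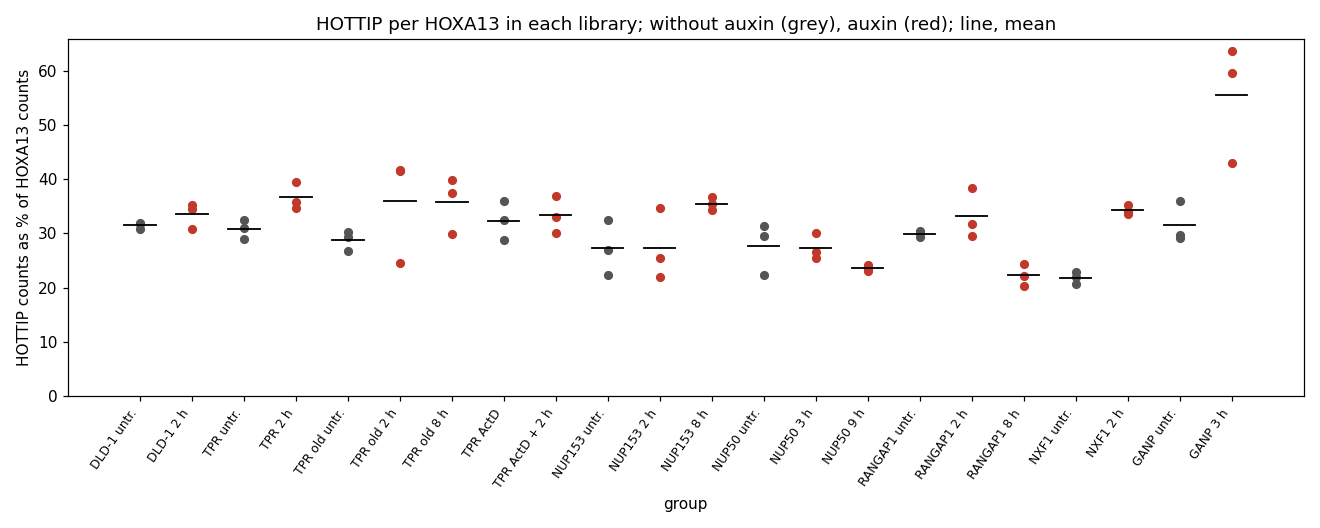
HOTTIP counts as a percentage of HOXA13 counts in every library, by line and time, with libraries without auxin in grey, libraries with auxin in red and lines for the mean. GANP libraries go from 29.2 to 35.95% untreated to 43.1 to 63.7% after auxin, and RANGAP1 libraries at 8 h lie at 20.3 to 24.4%.

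The other HOX genes gave no call in AID-TPR cells, which is near the share over all genes. Of 31 further HOX genes 18 were tested, and none was called in the plain set, in the old set at 2 h or in the old set at 8 h. Of all genes 0.404%, 0.309% and 2.36% were called lower in that order. The median of the 18 was -0.05, -0.27 and -0.18 in that order. HOXB3 and HOXB4, the 2 with the highest level, differed by 0.08 and -0.29 in the plain set. In GANP cells 5 of the 18 fell, while 11.5% of all genes were called lower: HOXB13, a posterior factor of colon and prostate, by 0.54, and HOXD9, HOXD10, HOXD11 and HOXD13. These HOXD genes were near the floor, with means over all libraries of 1.04 to 2.01 CPM. In RANGAP1 cells at 8 h HOXB3, HOXB4 and HOXB5 fell and HOXD8, HOXD9 and HOXD10 rose, while 6.62% of all genes were called lower and 8.23% higher. In NUP153 cells at 8 h HOXA4 and HOXB5 rose by 2.08 and 1.94, while 0.915% of all genes were called higher. HOXD8 and HOXA4 were low as well, at means of 0.780 and 0.857 CPM.

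Of 13 tested noncoding RNAs of the HOX clusters, none was called in AID-TPR cells. This is near the share of all genes called lower there (0.404% in the plain set, 0.309% and 2.36% in the old set at 2 h and 8 h). HOXA11-AS, which shares exon with HOXA11, differed by -0.53 ± 0.11 in the plain set (edgeR, adjusted p = 0.0708), -0.96 ± 0.28 in the old set at 2 h (adjusted p = 0.218) and -0.87 ± 0.25 at 8 h (adjusted p = 0.0794). It fell in NXF1 cells (-0.62 ± 0.08, adjusted p = 2.55e-04) and in GANP cells (-0.87 ± 0.09, adjusted p = 6.24e-05), where HOXA10-AS fell as well (-0.77 ± 0.07). In RANGAP1 cells at 8 h 4 of the 13 fell (HOXB-AS1, HOXB-AS2, HOXB-AS4 and MIR196A1), while 6.62% of all genes were called lower. HOXD-AS2 rose there, and in NUP153 cells at 8 h HOXB-AS3 rose (0.38).

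Regulators and partners of HOX genes were mostly uncalled in AID-TPR cells, as were most genes. Of all 17812 genes, 85 were called in the plain set, and 79 and 639 in the old set at 2 h and 8 h. Among 15 subunits of the WDR5-MLL and Polycomb complexes, the activators and repressors of HOX chromatin, BMI1 rose in the old set at 8 h (1.01 ± 0.18, edgeR, adjusted p = 0.0257) and no other was called. WDR5, the partner of HOTTIP, differed by 0.09 in the plain set and by 0.19 and 0.25 in the old set. Those called in the other lines included the Polycomb readers CBX2 (-1.13) and CBX8 (-0.59). They were among 3 of the 15 that fell in NXF1 cells, while 5.93% of all genes were called lower. In GANP cells CBX2 fell by 1.09 and 2 of the 15 rose, among them BMI1 (0.40). Of all genes 11.5% were called lower there, and 2752 were called in either direction. In RANGAP1 cells at 8 h 4 of the 15 rose (WDR5, EZH2, BMI1 and RNF2) and 1 fell. Of all genes 8.23% were called higher there and 6.62% lower. None of 7 tested TALE cofactors (PBX, MEIS and PKNOX proteins that bind DNA with HOX factors) was called in AID-TPR cells. Those called in the other lines included PBX3, which rose in NUP153 cells at 8 h (0.77), and PBX2, which fell in GANP cells (-0.52). CDX2, the caudal factor of intestinal epithelium, rose in RANGAP1 cells at 2 h (0.65 ± 0.09) and 8 h (1.00 ± 0.09). It was not called elsewhere, but differed by 0.78 in NUP50 cells at 3 h and by 0.59 in NUP153 cells at 2 h. In DLD-1 cells it differed by -0.42, and in the remaining comparisons by -0.09 to 0.27.

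Over the 36 auxin libraries without ActinomycinD, each set against the mean of its own untreated group on the log2(CPM + 0.5) scale, the 5 of 17811 genes most like HOXA13 were IRF2BP2 (Pearson's r = 0.966), MOCS3 (0.959), SMCR8 (0.956), WDCP (0.951) and FUT4 (0.951). Libraries of 1 line share their untreated mean, and the values are a description. Among the other 8 genes, HOXA10 stood at rank 10 (0.947), HOXB6 at rank 405 (0.864) and HOXA9 last at rank 2446 (0.689). HOTTIP, which shares its start region with HOXA13, stood at rank 1237 (0.783), and HOXA11 at rank 1355 (0.773).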

How the data were processed

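Per the labels and the study's methods, ribosomal RNA was removed from total RNA, libraries were made with a stranded TruSeq kit, and the reads were mapped to GRCh38 and counted per Ensembl gene by the authors, who deposited 1 table of raw counts for each library. The submitters' processing notes name CASAVA 1.8.2, STAR 2.6.1c and featureCounts 1.5.2. The deposited counts were used as they are, and 58051 genes were listed in every file. Which reads were counted for overlapping genes was not given in the sources used here, and the tables fall into 3 kinds by the genes that hold counts. The 9 genes, the lists and the tests were chosen with earlier results of these data known.

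Genes with CPM above 1 in over 5% of the 60 libraries without ActinomycinD (4 libraries) were tested, 17812 genes holding at least 99.8% of each library. Each auxin group was tested against its untreated group with edgeR's quasi-likelihood test (edgeR 4.0.16, limma 3.58.1, R 4.3.3), trimmed-mean scaling and adjustment by Benjamini and Hochberg. To be called, a gene needed a fold of 1.3 upward or 0.7 downward beside its p below 0.05 after adjustment (log2 0.38 or -0.51), and genes called in DLD-1 were not called in the tagged lines. SEs are the log2 difference divided by the square root of F. Differences of differences were interaction contrasts with no fold limit. DESeq2 1.42.0 was an alternative, with other scalings, filters, designs and each library left out. The scripts were tested on simulated data.

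Genes named are the 9 members, genes sharing exon with them, and list members that were called (with values for at most 4 in a comparison), otherwise the 2 with the highest level, plus the 5 genes most like HOXA13. Exons are from GENCODE release 44 (56948 of the gene identifiers matched), and sequences are from RefSeq, GRCh38.p14. HOXB6, HOXB7, HOXB8 and HOXB9 are not shown. Some results for list members are not reported here.

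The 66 pairs of libraries within groups differed by 4.07 to 67.4 in chi-square per degree of freedom, so none counted as a duplicate. Same-numbered libraries correlated over 0.1 in all 3 pairs in 7 of 13 comparisons (TPR 2 h, NUP153 2 h, RANGAP1 2 h and 8 h, NXF1, GANP and ActinomycinD). There the replicate number was read as pairing the libraries, from the data and not from the labels. The main fits behind the calls used no pairing, and the replicate block was an alternative to them.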

Additional observations from a re-analysis of the deposited data

Results flagged for a closer look

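The response to auxin differed between 2 lines in a direct test (edgeR's quasi-likelihood test of the difference of the log2 differences, adjusted p under 0.05) for the following genes, each with 3 libraries a group. AID-TPR cells at 2 h had a lower HOXA11 than DLD-1 cells, by -0.66. Against GANP cells at 3 h they had higher values, with a difference of 0.67 for HOXA13, 0.82 for HOXA11, 0.49 for HOXA10 and 0.54 for HOXA9.

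Old AID-TPR cells at 8 h differed from NUP153 cells at 8 h by -1.42 for HOXA13, -1.51 for HOTTIP, -0.63 for HOXA11, -1.06 for HOXA10, -1.31 for HOXB9 and -1.10 for HOXB6. They differed from NUP50 cells at 9 h by -1.39 for HOXA13, -0.87 for HOTTIP, -0.75 for HOXA11, -0.93 for HOXA10 and -1.06 for HOXB6. They differed from RANGAP1 cells at 8 h by -1.06 for HOXA13, -1.37 for HOXA11, -1.06 for HOXA10, -0.87 for HOXA9, -1.18 for HOXB9, -1.22 for HOXB8 and -0.65 for HOXB6. The kinds of file differ between AID-TPR old and RANGAP1 cells, and the part of the counting in these values was not tested.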

How the results depend on the processing

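No difference of the 9 genes changed sign under a setting in which it was called. Over the 13 comparisons, whether a gene was called or not stayed the same in 790 of 819 results under another setting, with the fold limit kept. With 1 library left out it stayed the same in 646 of 702. These counts include genes that were not called and stayed so, and they are not the share of calls kept. For the 2 h AID-TPR comparison the number of genes called went from 1 to 0 with RLE scaling. It went to 2, with HOXA13 gained, under DESeq2, no filter, the replicate block or 1 fit over all libraries. With both label sets together it went to 3, with HOXA13 and HOXB6 gained. For the old set at 2 h it went from 3 to 6 with no filter or 1 fit, to 4 with DESeq2 and to 2 with library sizes alone or edgeR's filterByExpr (HOXB6 lost), and at 8 h from 5 to 4 with RLE (HOXA11 lost) and to 6 under 5 settings. NUP153 at 8 h went from 2 to 0 with the replicate block. Without the fold limit RANGAP1 at 8 h went from 4 to 7, NXF1 from 2 to 5 and GANP from 5 to 9, and GANP had 8 with library sizes alone. Genes that differed from AID-TPR at 2 h went from 1 to 0 with RLE or library sizes, to 3 with DESeq2 and to 7 with the block for DLD-1, and from 0 to 4 with DESeq2 and 7 with the block for NUP153. They went from 0 to 1 with DESeq2 and 5 with the block for NUP50, to 1 and 3 for RANGAP1, to 1 and 4 for NXF1, and to 4 with the block for ActinomycinD. With 1 library left out, the number called was 0 to 1 for AID-TPR at 2 h, 0 to 3 for the old set at 2 h, 0 to 7 at 8 h, 0 to 2 for NUP153 at 8 h, 4 for RANGAP1 at 8 h, 2 to 3 for NXF1 and 5 to 6 for GANP, and 0 in the other comparisons. The number that differed was 0 to 2 for DLD-1 and NUP153, 0 to 1 for NXF1, 2 to 4 for GANP, and 4 to 8, 4 to 7 and 5 to 8 for the late NUP153, NUP50 and RANGAP1 comparisons. Why these settings differ was not tested. With the replicate block each gene keeps 2 residual degrees of freedom in place of 4. In the 6 comparisons where numbers did not pair the libraries the block gave 4 genes for the old set at 2 h and 6 at 8 h.

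Over all genes the number called moved more widely: from 85 to between 81 and 457 in the plain AID-TPR set, from 79 to between 62 and 1746 in the old set at 2 h, from 639 to at most 3352 at 8 h, from 1446 to at most 3828 for NXF1 and from 2752 to at most 5143 for GANP. NUP153 went from 4 to at most 105 at 2 h and from 235 to between 69 and 755 at 8 h, NUP50 from 32 to at most 189 and from 65 to at most 512, RANGAP1 from 97 to at most 427 and from 2645 to at most 4741, DLD-1 from 10 to between 5 and 52 and ActinomycinD from 0 to at most 5. All genes that differed from AID-TPR at 2 h went from 147 to 131 with RLE and 111 with library sizes for DLD-1. DESeq2 and the block gave 277 and 1341 for DLD-1, 262 and 816 for NUP153 and 212 and 555 for NUP50. They gave 146 and 946 for RANGAP1 and 582 and 2370 for NXF1, and the block gave 800 for ActinomycinD.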
